A study of Mus musculus with 15 samples.

Results

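The mesothelial and epicardial genes Muc16, Upk1b, Upk3b, Msln, Wt1, Krt8, Krt18, Krt19, Lrrn4 and Aldh1a2 were followed in cardiomyocyte preparations from irradiated and sham-treated mice. They are a list of 10 genes, found by symbol among the 19937 genes that had a probe set annotated with a single symbol, and each of them had 1 such probe set. Cells were isolated from the left ventricle of male C57Bl/6NT (Taconic) mice aged 8 to 9 months that had received whole-body irradiation with 90 cGy of 1 GeV protons at 0.17 Gy/min, or a sham treatment. The sample titles assign 2 arrays to proton day 1, 3 to day 3, 3 to day 5, 2 to day 12 and 2 to day 26, and to sham 2 arrays of day 1 and 1 of day 3. Other late days, and iron ions, are named by the series' design text. Iron samples were not analysed here, and the days are those of the titles. Days 5, 12 and 26 had no sham array of their own, so each day was compared with the same 3 pooled sham arrays, which all these comparisons share. Nothing in the labels states that replicate arrays are separate mice, so p-values here measure only how far these samples spread, which may be technical. Precision is limited by how few arrays there are.

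The mesothelium is the sheet of flattened epithelial cells that lines the body cavities and covers the organs in them. On the heart this sheet is the epicardium, which in the embryo releases cells that become fibroblasts and vascular mural cells and which makes retinoic acid. Mesothelial cells carry keratin filaments and a surface coat of glycoproteins, which set them apart from the muscle and the connective tissue beneath. Cardiomyocytes are not known as a main source of these products, and the preparation was described in the labels as more than 90% calcium-tolerant cardiomyocytes with possible inflammatory and endothelial cells. In such bulk RNA, fewer cells of a type and less RNA per cell cannot be told apart.

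In the RefSeq annotation of GRCm38.p6, Krt8 at chr15:101996711-102004342 and Krt18 at chr15:102028216-102032026, which encode the partner proteins of a keratin filament, are separated by 23873 bases. Wt1 (chr2:105126529-105173614) and Lrrn4 (chr2:132866686-132894010) share chromosome 2, and Muc16 (chr9:18495445-18674821) and Aldh1a2 (chr9:71215789-71296243) share chromosome 9. The others are Upk3b (chr5:136038496-136044993), Krt19 (chr11:100140810-100145926), Upk1b (chr16:38773182-38800203) and Msln (chr17:25748613-25754378). A promoter entry was given for 6 of the 10 genes (Muc16, Upk3b, Krt8, Krt18, Lrrn4 and Aldh1a2), and the 250 bases before the start were searched on both strands for 5 motifs. The first was AGGTCA, the half-site of nuclear receptors, the retinoic acid receptors among them. The next was GGAATG, which is bound by TEAD factors. General promoter elements were represented by GGGCGG, a site of Sp factors, and by the sequence TATAAA, found near many start sites. The last was GCGGGGGCG, known as a site shared by the WT1 and EGR factors. The promoters that held any of these are shown, 5′ to 3′ on the strand of the gene, with the matches in capitals. They are Upk3b, chr5:136038246-136038495 on the plus strand, Krt8, chr15:102004343-102004592 on the minus strand, Krt18, chr15:102027966-102028215 on the plus strand, and Lrrn4, chr2:132880863-132881112 on the minus strand, where the start used by the table lies inside the span of the gene.
Upk3b: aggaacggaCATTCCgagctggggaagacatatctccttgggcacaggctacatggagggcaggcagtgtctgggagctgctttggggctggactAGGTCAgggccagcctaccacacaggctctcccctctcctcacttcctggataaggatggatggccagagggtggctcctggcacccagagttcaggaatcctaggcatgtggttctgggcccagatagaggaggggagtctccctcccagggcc
Krt8: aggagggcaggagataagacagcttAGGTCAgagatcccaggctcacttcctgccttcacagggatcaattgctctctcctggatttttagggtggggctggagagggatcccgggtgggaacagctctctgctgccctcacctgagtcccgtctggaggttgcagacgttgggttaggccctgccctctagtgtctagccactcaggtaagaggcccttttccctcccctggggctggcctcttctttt
Krt18: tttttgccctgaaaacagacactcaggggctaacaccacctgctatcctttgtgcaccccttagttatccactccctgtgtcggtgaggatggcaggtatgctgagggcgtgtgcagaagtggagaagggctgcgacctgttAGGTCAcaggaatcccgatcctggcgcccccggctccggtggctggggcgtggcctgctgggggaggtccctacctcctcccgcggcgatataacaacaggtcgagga
Lrrn4: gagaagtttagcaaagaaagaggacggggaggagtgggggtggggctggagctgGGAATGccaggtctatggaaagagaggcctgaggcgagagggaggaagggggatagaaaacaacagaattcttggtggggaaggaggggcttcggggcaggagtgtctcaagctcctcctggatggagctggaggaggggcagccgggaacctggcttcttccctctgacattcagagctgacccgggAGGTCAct
The letters AGGTCA were found in 4 of the 6 promoters searched, and in 14% of the 32851 promoters of the table. They stood at -155 in Upk3b, -225 in Krt8, -108 in Krt18 and -8 in Lrrn4, counted from the start of transcription. Enrichment was not tested. The TEAD letters occurred in Lrrn4 at -196 and, on the opposite strand, in Upk3b at -241, against 12.6% of all promoters. No match of any of the 5 motifs was present in these windows of Muc16 and Aldh1a2, whose GC content was 46.4% and 77.6%. The Muc16 window, chr9:18674604-18674853 on the minus strand, lies mostly inside the span of the gene, as the start used for it does. The Sp site occurred in 32.7%, the TATAAA sequence in 12.4% and the WT1 and EGR site in 2.57% of all promoters, and in none of the 6. A match of letters describes the sequence only, and binding was not measured.

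All 10 genes had a mean signal above the median of all probe set means, which was 5.00 on the log2 scale. The cardiomyocyte markers (Myh6, Myl2, Tnnt2, Ryr2 and 6 others) averaged 12.07 to 12.15 in every sample, with none below the median of all probe sets. This is near the top of the scale, where the highest value of any probe set was 12.94. How far signals at this level can vary was not tested, so their small spread here and below is not a measure of cardiomyocyte content. Proton day 5 replicates 1 and 2 stood closer to each other than any other pair of arrays: the SD of their log2 differences was 0.323 over all probe sets, against 0.464 to 0.629 for the other pairs among 105. They were averaged into 1 sample, which left 14 samples. Before any comparison, 4 arrays stood apart for these genes. Proton day 3 replicate 3 and proton day 12 replicate 2 were the 2 highest arrays for all 10 genes, and proton day 3 replicate 2 and the sham array of day 3 were the 2 lowest for all 10. The list's median differences, its spread within groups, its median Pearson r and the marker medians are therefore also given without all 4. This alternative was chosen after the values were seen, and it left 10 samples and 1 array each at days 3 and 12. The 4 arrays are the extremes of these same 10 genes. A fall in the list's differences, spread or r without them therefore follows in part from the choice itself.

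**Figure D1:**
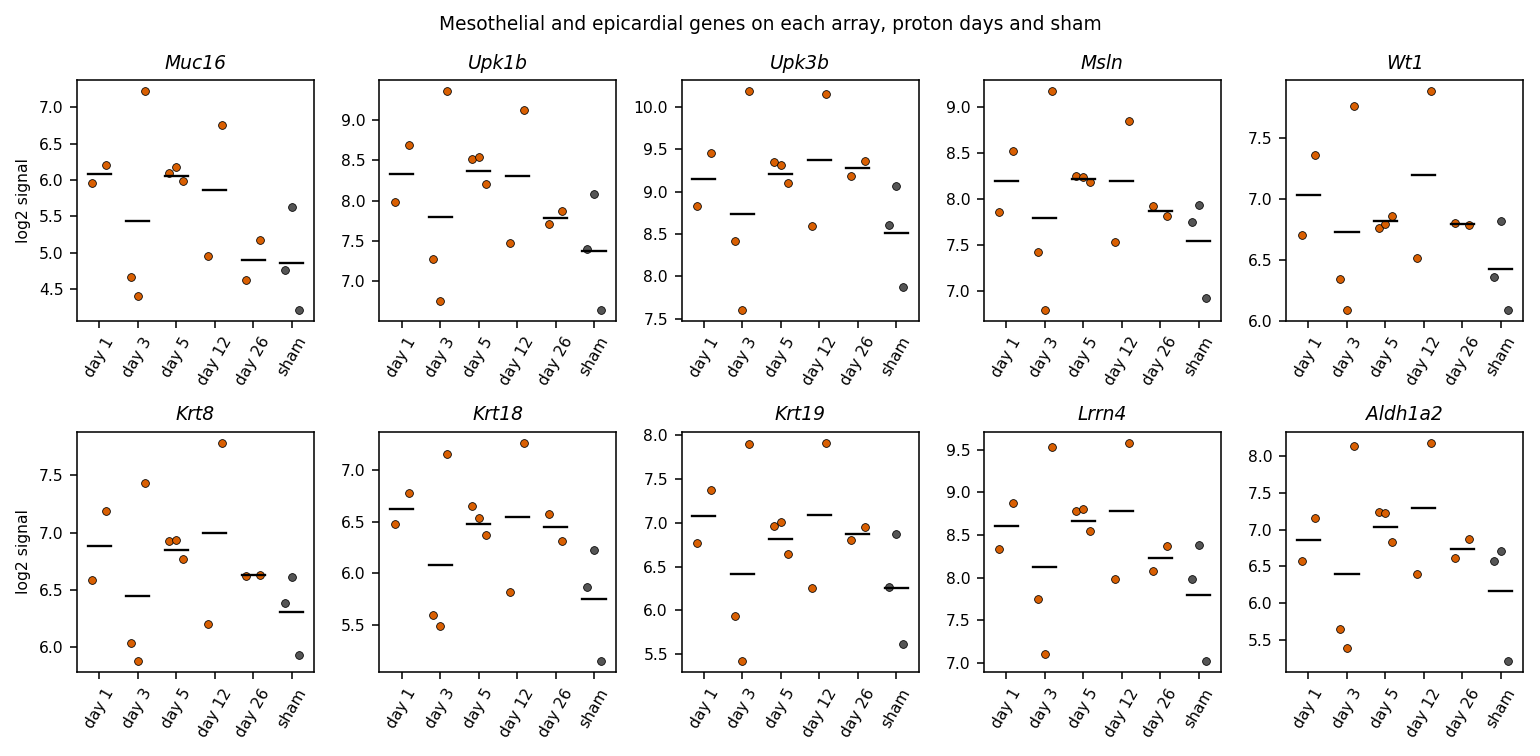
Log2 signal (vertical axis) of each of the 10 genes on each array, in a panel per gene with its own scale, for proton days 1, 3, 5, 12 and 26 (orange) and sham (grey). Points are arrays and bars are group means, with proton day 5 replicates 1 and 2 averaged first. Day 3 replicate 3 and day 12 replicate 2 are the highest points in every panel.

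Muc16 and Msln encode a matched pair of surface molecules: Muc16 is a large membrane mucin (CA125) and Msln, mesothelin, is a membrane-anchored glycoprotein that binds it. Muc16 had log2 signals of 5.97 and 6.21 on proton day 1, 4.66, 4.41 and 7.22 on proton day 3, 6.09, 6.18 and 5.98 on proton day 5, 4.96 and 6.76 on proton day 12, and 4.63 and 5.18 on proton day 26, against 4.76, 5.63 and 4.21 in sham cells. Every array of days 1 and 5 was above all 3 sham arrays, while days 3, 12 and 26 overlapped sham. Msln had 7.86 and 8.53 on proton day 1, 7.43, 6.80 and 9.17 on proton day 3, 8.25, 8.25 and 8.19 on proton day 5, 7.53 and 8.85 on proton day 12, and 7.92 and 7.81 on proton day 26, against 7.75, 7.94 and 6.93 in sham cells. Only the day 5 arrays lay wholly above sham for Msln. The order of the group means of Muc16 was day 1, day 5, day 12, day 3, day 26 and sham, with 6.09 ± 0.17 (SD, n = 2) at day 1, 4.90 ± 0.39 (SD, n = 2) at day 26 and 4.87 ± 0.71 (SD, n = 3) in sham. The Muc16 probe set was annotated through a single cDNA accession only.

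Upk1b and Upk3b are uroplakins, membrane proteins first known from the urothelium of the bladder, where Upk1b, a tetraspanin, is a partner of the Upk3 proteins. Upk1b had 7.98 and 8.69 on proton day 1, 7.28, 6.74 and 9.36 on proton day 3, 8.52, 8.54 and 8.21 on proton day 5, 7.48 and 9.13 on proton day 12, and 7.71 and 7.87 on proton day 26, against 7.40, 8.08 and 6.64 in sham cells. Its day 5 arrays were above every sham array, and all other days overlapped sham. Upk3b had 8.83 and 9.46 on proton day 1, 8.41, 7.60 and 10.19 on proton day 3, 9.35, 9.31 and 9.10 on proton day 5, 8.60 and 10.16 on proton day 12, and 9.18 and 9.36 on proton day 26, against 8.60, 9.07 and 7.88 in sham cells. For Upk3b both day 5 and day 26 lay wholly above sham, and the spread within day 3 was wider than the distance between any group means.

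Krt8, Krt18 and Krt19 are keratins of simple epithelia, in which Krt8 pairs with either of the other two. Krt8 had 6.58 and 7.19 on proton day 1, 6.04, 5.88 and 7.43 on proton day 3, 6.93, 6.94 and 6.77 on proton day 5, 6.21 and 7.79 on proton day 12, and 6.62 and 6.63 on proton day 26, against 6.39, 6.61 and 5.93 in sham cells. Krt18, whose promoter sequence is printed above after that of its partner, had 6.47 and 6.78 on proton day 1, 5.60, 5.49 and 7.15 on proton day 3, 6.65, 6.54 and 6.37 on proton day 5, 5.82 and 7.26 on proton day 12, and 6.58 and 6.31 on proton day 26, against 5.87, 6.22 and 5.15 in sham cells. Krt18 was above all sham arrays at days 1, 5 and 26, and Krt8 at days 5 and 26, by a narrow margin at day 26 (6.62 against 6.61). Krt19 had 6.77 and 7.37 on proton day 1, 5.94, 5.42 and 7.89 on proton day 3, 6.96, 7.01 and 6.64 on proton day 5, 6.25 and 7.91 on proton day 12, and 6.80 and 6.95 on proton day 26, against 6.27, 6.87 and 5.61 in sham cells. Krt19 overlapped sham on every day.

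Wt1 is a zinc finger transcription factor of the epicardium, and Aldh1a2 is the enzyme that makes retinoic acid from retinal there. Wt1 had 6.71 and 7.36 on proton day 1, 6.34, 6.09 and 7.76 on proton day 3, 6.76, 6.79 and 6.86 on proton day 5, 6.51 and 7.88 on proton day 12, and 6.80 and 6.78 on proton day 26, against 6.36, 6.82 and 6.09 in sham cells. Aldh1a2 had 6.57 and 7.16 on proton day 1, 5.64, 5.38 and 8.14 on proton day 3, 7.24, 7.23 and 6.83 on proton day 5, 6.40 and 8.19 on proton day 12, and 6.61 and 6.87 on proton day 26, against 6.57, 6.71 and 5.20 in sham cells. Wt1 overlapped sham on every day, and Aldh1a2 was wholly above it at day 5 alone. Lrrn4, a membrane protein with leucine-rich repeats, had 8.33 and 8.87 on proton day 1, 7.74, 7.10 and 9.54 on proton day 3, 8.78, 8.80 and 8.55 on proton day 5, 7.98 and 9.59 on proton day 12, and 8.08 and 8.37 on proton day 26, against 7.99, 8.38 and 7.01 in sham cells. Its day 5 arrays were the only ones wholly above sham. Over the 10 genes, sham had the lowest group mean for all 10 and day 12 the highest for 6, with days 1 and 5 highest for 2 each. Of the 50 pairs of neighbouring groups in these orders, 49 had overlapping values, the exception being Krt8 between days 5 and 26. The share of all genes with such orders was not computed. The 10 genes varied together (median r of 0.96), so they are not 10 separate observations. Without the sham array of day 3, sham was not the lowest for all 10. The difference from sham was then -0.051 for Krt8 at day 3 and -0.29 for Muc16 at day 26.

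No gene of the list passed an adjusted p of 0.05 (limma, Benjamini-Hochberg over 19937 genes) on any day against sham, and none had an unadjusted p under 0.05. Every one of the 10 nevertheless had a higher fitted mean on each proton day than in sham. At day 1 the list's median log2 difference was 0.76 (0.58 to 1.22), where the median of all genes was -0.035 and 43.6% of genes lay above 0. No gene at all passed there (0%, with 1071 genes at an unadjusted p under 0.05). Muc16 was higher by 1.22 ± 0.70 (log2 difference ± SE; limma adjusted p = 0.815) and Krt18 by 0.88 ± 0.48 (limma adjusted p = 0.815). These were the 2 genes of the list whose day 1 samples all lay above sham, a pattern seen in 11.2% of all genes. Krt8, the filament partner of Krt18, was higher by 0.58 ± 0.45 (limma adjusted p = 0.822). The median was 0.43 without the sham array of day 3, and also without all 4 arrays, and 0.47 without proton day 1 replicate 2.

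At day 3 the median difference was 0.28 (0.14 to 0.57), against -0.015 over all genes, of which 47% lay above 0. Muc16 differed by 0.57 ± 0.63 (limma adjusted p = 0.888) and Krt8 by 0.14 ± 0.41 (limma adjusted p = 0.96). No gene of the list was separated from sham (6.08% of all genes lay wholly above it), and 0.00502% of all genes passed the threshold. This median rested on single arrays: it was -0.37 without proton day 3 replicate 3, with Muc16 at -0.33 and Krt8 at -0.35, and -0.049 without the sham array of day 3. Without all 4 arrays, with replicate 1 alone left for the day, it was -0.46. It was 0.75 and 0.51 when replicate 2 or replicate 1 of day 3 was left out, and 0.50 without sham day 1 replicate 2.

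At day 5 the median was 0.72 (0.40 to 1.19), against 0.0069 over all genes, of which 51.4% lay above 0. All genes of the list but Wt1 and Krt19 lay wholly above sham, 8 of 10 against 14.6% of all genes. The 3 arrays of that day were close together for each of them, but replicates 1 and 2 were the near-identical pair averaged above, so the day held 2 samples. Muc16 was higher by 1.19 ± 0.70 (limma adjusted p = 0.795), Krt18 by 0.73 ± 0.48 (limma adjusted p = 0.826) and Wt1 by 0.40 ± 0.45 (limma adjusted p = 0.901). Of all genes 0.0301% passed. The 10 genes varied together across samples (median r of 0.96 between them), so the 8 are not 8 separate observations. The median was 0.38 both without the sham array of day 3 and without all 4 arrays.

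At day 12 the median was 0.85 (0.65 to 1.14), the highest of the 5 daily medians, against -0.0059 over all genes, of which 48.9% lay above 0. Aldh1a2 was higher by 1.14 ± 0.71 (limma adjusted p = 0.763) and Msln by 0.65 ± 0.55 (limma adjusted p = 0.808), yet no gene of the list was separated from sham (9.09% of all genes were) and no gene of the array passed (0%, with 1319 at an unadjusted p under 0.05). The 2 arrays of this day were far apart. Without replicate 2 the median was 0.086, with Aldh1a2 at 0.24 and Msln at -0.0073, and without replicate 1 it was 1.65. Leaving out the sham array of day 3 gave 0.55, and leaving out all 4 arrays gave -0.24, with Aldh1a2 at -0.24 and Msln at -0.31.

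At day 26 the median was 0.42 (0.036 to 0.76), against 0.065 over all genes, of which 60.1% lay above 0. Upk3b was higher by 0.76 ± 0.60 (limma adjusted p = 0.659) and Krt18 by 0.70 ± 0.48 (limma adjusted p = 0.607), while Muc16 differed by 0.036 ± 0.70 (limma adjusted p = 0.988). Upk3b, Krt8 and Krt18 lay wholly above sham, 3 of 10 genes against 22.2% of all genes, and 0.0602% of all genes passed. The sign of the Muc16 difference turned under several settings, among them quantile normalization (-0.075) and equal array medians (-0.093). Without the sham array of day 3, as without all 4 arrays, the median was 0.12 and Muc16 stood at -0.29, and without sham day 1 replicate 2 the median was 0.74.

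**Figure D2:**
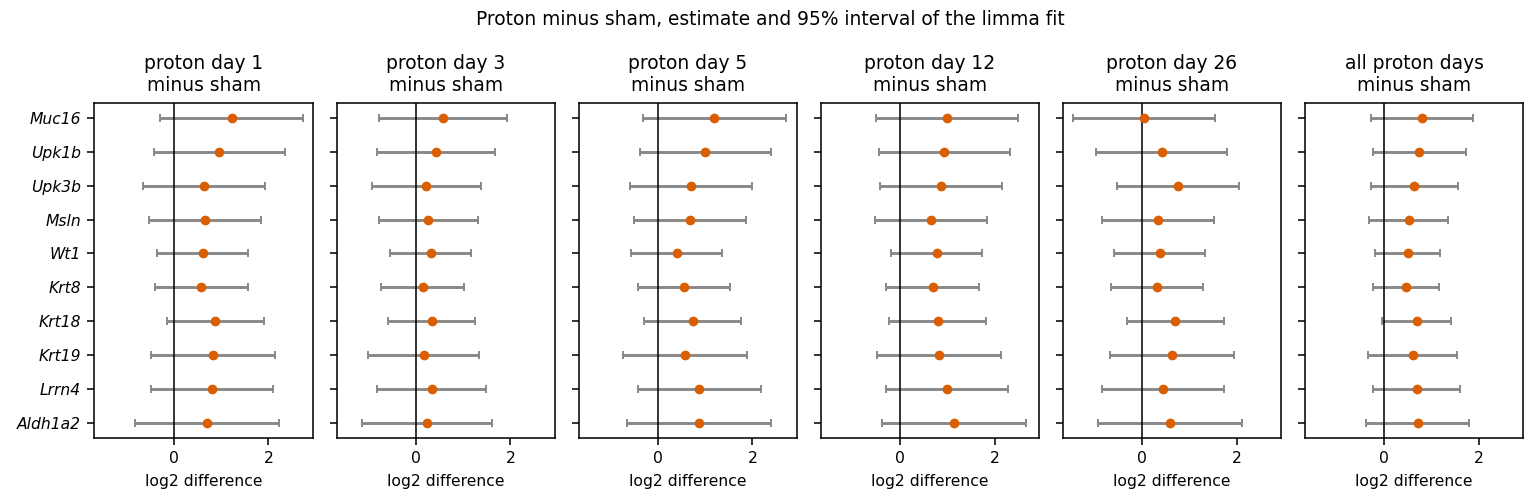
Log2 difference from the pooled 3 sham arrays (horizontal axis) for each of the 10 genes, in a panel for each proton day and for the mean of all proton days. Points are limma estimates and bars their 95% intervals. All points lie right of 0 and all intervals include 0.

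Averaged over the 5 proton days, the list's median difference from sham was 0.66 (0.45 to 0.80), against 0.0013 over all genes, of which 50.2% lay above 0. Muc16 had the largest estimate, 0.80 ± 0.50 with a 95% interval from -0.28 to 1.89 (limma adjusted p = 0.628), followed by Upk1b with 0.74 ± 0.46 (limma adjusted p = 0.626) and Aldh1a2 with 0.70 ± 0.51 (limma adjusted p = 0.668). Krt18 had the lowest p of the list, with 0.69 ± 0.34, an interval from -0.05 to 1.42 and an adjusted p of 0.559. The other estimates were 0.69 ± 0.43 for Lrrn4, 0.63 ± 0.43 for Upk3b, 0.60 ± 0.44 for Krt19, 0.51 ± 0.39 for Msln, 0.49 ± 0.32 for Wt1 and 0.45 ± 0.33 for Krt8. None of the 10 passed, none was below an unadjusted 0.05, and 0.015% of all genes passed. No gene of the list had all proton samples above all sham samples, which 0.567% of all genes had. The median was 0.31 without the sham array of day 3, the lowest when single arrays were left out, and 0.92 without sham day 1 replicate 2, the highest. It was 0.51 and 0.50 when the high arrays of day 3 and day 12 were left out singly, and 0.75 when the low array of day 3 was. Without all 4 arrays it was 0.076, with Krt18 the highest at 0.15 and Aldh1a2 below 0 at -0.10.

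Markers of the other cell types that such a suspension can hold are given beside these differences. Over all proton days against sham, the median difference was 0.48 for 12 fibroblast markers, 0.28 for 12 endothelial markers, 0.34 for 12 macrophage markers and 0.69 for 6 atrial markers, against -0.013 for 10 cardiomyocyte markers, with no gene past the threshold in any of these lists. Without the 4 arrays that stood apart these medians were 0.19, 0.16, -0.080 and 0.59, against -0.0049 for the cardiomyocyte markers. Per sample, as the mean deviation from each gene's own mean, the 10 genes ran from 0.037 to 0.59 on proton day 1, -1.08 to 1.22 on proton day 3, 0.18 to 0.39 on proton day 5, -0.40 to 1.18 on proton day 12 and -0.078 to 0.044 on proton day 26, against -1.11 to 0.064 in sham. The fibroblast markers ran from 0.054 to 0.34, -0.68 to 0.57, 0.093 to 0.20, -0.38 to 0.74 and 0.014 to 0.53 on the same days in order, against -0.50 to -0.12 in sham. Both lists thus had their widest ranges at days 3 and 12. The macrophage markers ran from 0.15 to 0.77, -0.89 to 0.51, -0.055 to -0.031, -0.32 to 0.79 and 0.17 to 0.36, against -0.57 to -0.072 in sham. The endothelial markers ran from 0.17 to 0.37, -0.75 to 0.45, -0.22 to 0.13, -0.13 to 0.62 and -0.039 to 0.51, against -0.36 to 0.0089 in sham. At day 26 the fibroblast and macrophage markers lay wholly above their sham values, while the 10 genes as a list did not. None of the fibroblast, endothelial and macrophage markers had a mean below the median of all probe sets. With the mean of these 3 lists as a covariate, the median of the 10 genes over all proton days was 0.0048, and -0.16 on proton day 1, 0.29 on proton day 3, 0.27 on proton day 5, 0.057 on proton day 12 and -0.40 on proton day 26. Without the 4 arrays the same medians were 0.018 over all proton days, and 0.18, -0.17, 0.29, -0.20 and -0.12 on the days in order. Their part in the differences was not tested beyond these values.

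Single genes of 2 further lists also varied with the 10 genes, and these were chosen after their values were seen. Scgb1a1, a secretory protein of airway club cells, had 11.61 and 11.33 on proton day 1, 8.74, 8.71 and 10.37 on proton day 3, 11.27 and 11.15 in the 2 samples of proton day 5, 8.60 and 11.82 on proton day 12, and 10.14 and 9.43 on proton day 26, against 7.95, 10.65 and 5.96 in sham cells. Its samples overlapped sham on each day but 1 and 5, its difference over all proton days was 2.21 ± 0.77 (limma adjusted p = 0.45), and its r with the mean of the 10 genes was 0.783. The median r of the 8 lung and liver genes was 0.10. The B cell genes Cd79a, Cd79b and Ms4a1 had an r of 0.845, 0.856 and 0.831 and differences of 0.37 ± 0.43, 0.47 ± 0.41 and 0.66 ± 0.55 (limma adjusted p = 0.807, 0.738 and 0.724), while the T cell genes Cd3e, Cd3g, Cd8a and Cd4 had an r of -0.15 to 0.38. The part of these genes' sources in the result was not tested.

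**Figure D3:**
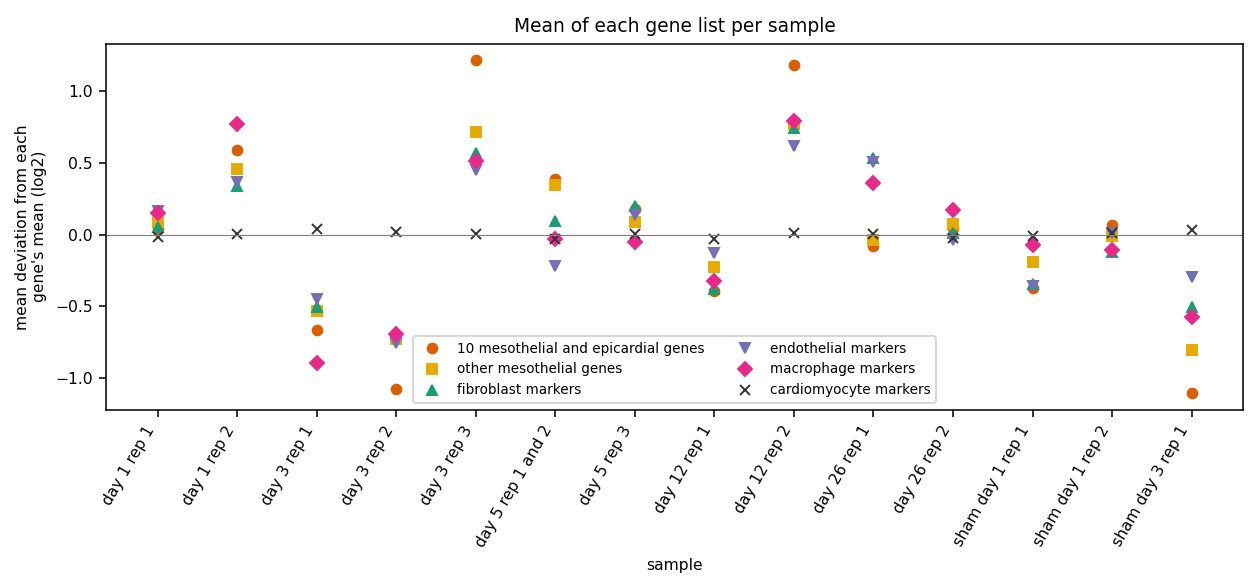
Mean deviation from each gene's own mean over the 14 samples (vertical axis, log2) for the 10 genes, for other mesothelial genes and for markers of 4 cell types, in each sample (horizontal axis, proton days and then sham). Points are list means. The fibroblast, endothelial and macrophage markers are high in day 3 replicate 3 and day 12 replicate 2, as the 10 genes are, and the cardiomyocyte markers stay near 0.

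Late proton days (12 and 26) were set against early ones (1 and 3). The sham arrays did not enter this difference, but they were part of the fit that gave its SE and p. The median difference was 0.14, with 8 of the 10 genes above 0, against 0.051 over all genes, of which 61.4% lay above 0. Muc16 had the lowest value, -0.38 ± 0.52 (limma adjusted p = 0.832), and Aldh1a2 the highest, 0.39 ± 0.53 (limma adjusted p = 0.826). No gene of the list passed, none was below an unadjusted 0.05, and 0.00502% of all genes passed. The median was -0.24 without replicate 2 of proton day 12, 0.52 with replicate 1 of that day left out, and 0.40 when proton day 3 replicate 3 was left out. Muc16 stood at 0.071 and 0.069 without the last 2 of these arrays. Leaving out replicate 2 or 1 of day 3 put the median at -0.031 or 0.029, and leaving out replicate 1 of day 1 put it at -0.0026, while 0.28 was reached without replicate 2 of day 1. The median was -0.040 with the 4 arrays that stood apart left out. In a test for any difference among the 5 proton days, the lowest adjusted p of the list was 0.928 (limma, Muc16), and 0% of all genes passed, with 1337 at an unadjusted p under 0.05. The genes with the smallest p were outside the list: Rnu12 at day 1, Pde7a at days 3 and 26, Scarna13 at days 5 and 12 and over all proton days, Lcn2 between late and early days, and Dntt among the days.

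Replicates of the same group differed widely for these genes. Their residual SD within groups had a median of 0.84, against 0.21 over all genes and 0.032 for the cardiomyocyte markers, and each of the 10 exceeded at least 98.1% of all genes. Without the 4 arrays that stood apart the median was 0.28, against 0.17 over all genes and 0.024 for the cardiomyocyte markers, and the lowest of the 10 exceeded 60.4% of all genes. Those arrays were picked as the extremes of these 10 genes, so part of this fall follows from the choice. Proton day 3 replicate 3 was above the mean of replicates 1 and 2 by a median of 2.15 (1.47 to 2.68), with all 10 genes more than 1 higher, against 3.17% of all genes. Muc16 and Aldh1a2 had the widest gaps there, 2.68 and 2.63, and Krt8 the narrowest, 1.47. Proton day 12 replicate 2 was above replicate 1 by a median of 1.59 (1.32 to 1.80), again with all 10 more than 1 higher, against 2.96% of all genes. The mean of the sham arrays of day 1 was above the sham array of day 3 by a median of 0.96 (0.50 to 1.44), with 3 of 10 genes more than 1 higher against 0.637% of all genes.

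Other lists differed between the same replicates. In day 3 replicate 3 the median gap was 1.76 for the other mesothelial genes, 1.41 for macrophage, 1.17 for fibroblast, 1.16 for endothelial and 1.17 for atrial markers, 0.42 for genes of epicardial development, -0.61 for the other uroplakins and -0.036 for cardiomyocyte markers. In day 12 replicate 2 it was 0.95 for the other mesothelial genes, 1.26 for macrophage, 1.07 for fibroblast, 0.82 for endothelial and 1.34 for atrial markers, and -0.0057 for cardiomyocyte markers. In that array it was also 0.21 for genes of epicardial development and -0.059 for the other uroplakins. The lymphocyte markers had 0.65 in day 3 replicate 3 and 1.27 in day 12 replicate 2, and the adipocyte markers had 0.60 and 0.64. Between the sham arrays the fibroblast, endothelial and macrophage markers differed by 0.33, 0.17 and 0.45 and the other mesothelial genes by 0.87. The atrial markers went the other way there, with -0.31, as did the smooth muscle and pericyte markers with -0.19 and the lymphocyte markers with -0.074.

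**Figure D4:**
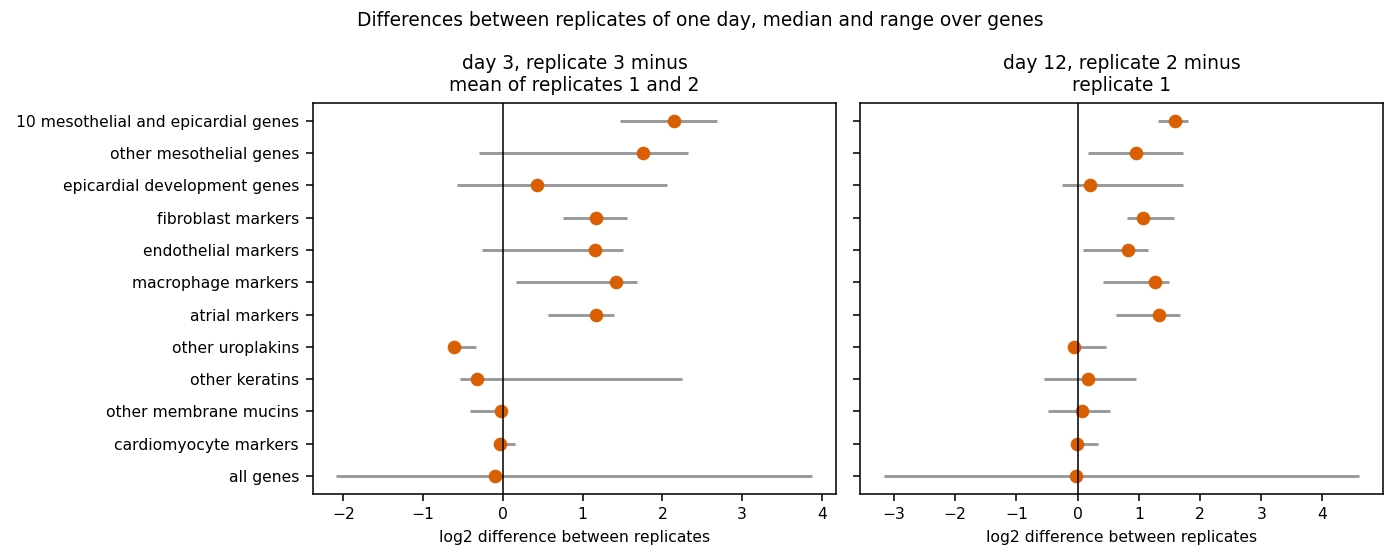
Log2 difference between replicates of 1 day (horizontal axis) for the 10 genes, 10 other lists and all genes, at proton day 3 (left) and proton day 12 (right). Points are medians over genes and lines the full range. The line of the 10 genes lies wholly above 1 in both panels, and the point of the cardiomyocyte markers lies near 0.

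The 10 genes varied together across the 14 samples. Over the 45 pairs the median Pearson r was 0.96 (0.862 to 0.991) and the median Spearman rho 0.93 (0.837 to 0.987). All 45 pairs passed for r and rho in a 2-sided permutation test adjusted over the pairs. The highest adjusted p of that test was 5e-05 for r and 0.00039 for rho, where 1e-05 is the smallest p the permutations can give. The permutations treated the 14 samples as exchangeable, though replicates may be technical. Pairs outside the list were not tested, and the list was chosen with earlier results of these data known. Passing therefore does not set these 10 genes apart from other genes. Without the 2 samples farthest from the median of the first gene of a pair, the median r was 0.94 (0.745 to 0.986). Without the 4 arrays that stood apart it was 0.87 (0.587 to 0.988) over 10 samples. For deviations from group means over all 14 samples, which leave out the days and the treatment, it was 0.97 (0.944 to 0.999). In a group of 2 samples these deviations mirror each other, and the wide gaps within days 3 and 12 weigh most in them. The r of deviations was not computed without the 4 arrays. The keratin partners Krt8 and Krt18 had an r of 0.96, the uroplakins Upk1b and Upk3b had 0.956, and the binding pair Muc16 and Msln had 0.924. Upk1b and Lrrn4 had the highest r, 0.991, and Muc16 and Upk3b the lowest, 0.862. Muc16 had the lowest median r with the rest of the list, 0.90, and Lrrn4 the highest, 0.97.

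**Figure D5:**
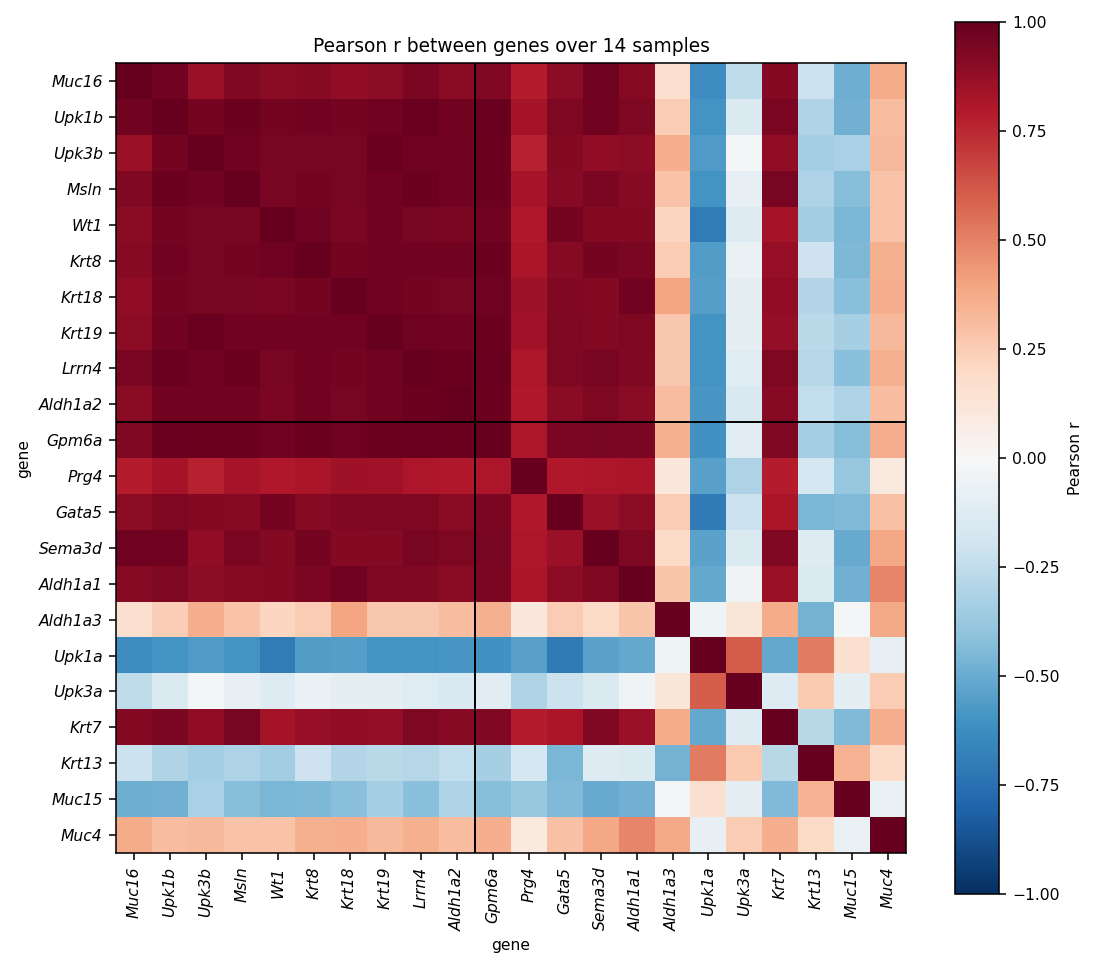
Pearson r over the 14 samples (colour, from -1 to 1) between the 10 genes, left of and above the black lines, and 12 genes of related families, the 2 with the largest proton-sham difference in each of 6 lists. The 45 pairs within the list lie between 0.862 and 0.991, while Upk1a, Upk3a, Krt13 and Muc15 have r below 0 with every one of the 10.

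Genes of the same tissue or family that were not on the list gave mixed values, and no gene of these 6 lists passed in any comparison. Of 15 other mesothelial genes measured (of 16), all 15 lay above 0 over all proton days, with a median of 0.50, and their median r with the mean of the 10 genes was 0.87. Without the 4 arrays that stood apart that difference was 0.031 and that r 0.80. Markers of other cell types reached similar values over the 14 samples. Their median r was 0.87 for fibroblast, 0.81 for macrophage and 0.75 for endothelial markers, against 0.23 for atrial and -0.55 for cardiomyocyte markers. Gpm6a, a membrane glycoprotein known from neurons, had a difference of 0.80 ± 0.44 (limma adjusted p = 0.587), and Prg4, the lubricant lubricin, had 0.76 ± 0.46 (limma adjusted p = 0.614). Calb2, calretinin, a standard marker of human mesothelium, had an r of -0.0028 with the mean of the list. Its mean lay below the median of all probe sets, with 3.34 to 4.21 over the samples.

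Of 12 genes of epicardial development, 8 lay above 0, with a median of 0.077 and a median r of 0.48. The transcription factor Gata5 had 0.66 ± 0.31 (limma adjusted p = 0.54) and an r of 0.943, and the guidance factor Sema3d had 0.53 ± 0.40 (limma adjusted p = 0.684) and an r of 0.959. Of 15 genes of retinoic acid synthesis, binding, breakdown and reception (of 16), 10 lay above 0, with a median of 0.046. Aldh1a1, which like Aldh1a2 makes retinoic acid, had 0.91 ± 0.53 (limma adjusted p = 0.604) and an r of 0.942. Aldh1a3, the remaining enzyme of that family, had 0.27 ± 0.11 (limma adjusted p = 0.51) and an r of 0.28.

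The other uroplakins, keratins and mucins had differences on both sides of 0. Of the 3 other uroplakins, Upk1a had -0.22 ± 0.13 (limma adjusted p = 0.607) and Upk3a -0.22 ± 0.16 (limma adjusted p = 0.672), and the median r was -0.61. Of the 12 other keratins, 5 lay above 0, with a median of -0.066 and a median r of 0.022. Krt7, a simple-epithelium keratin also counted among the other mesothelial genes, had 0.72 ± 0.40 (limma adjusted p = 0.597) and an r of 0.925. Krt13, a keratin of stratified epithelia, had 4.53 and 3.88 on proton day 1, 3.67, 4.12 and 3.54 on proton day 3, 4.30 and 3.90 on proton day 5, 3.81 and 4.23 on proton day 12, and 3.85 and 3.76 on proton day 26, against 4.78, 4.58 and 4.65 in sham cells. All proton samples were below all sham samples for it, a pattern seen in 0.677% of all genes, with a difference of -0.69 ± 0.18 (limma adjusted p = 0.328) and a signal below the median of all probe sets. Of 5 other membrane mucins 3 lay above 0, with Muc15 at -0.25 ± 0.17 (limma adjusted p = 0.653) and Muc4 at 0.13 ± 0.16 (limma adjusted p = 0.815).

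Among 12092 genes outside the list with a mean above the median of all probe sets, those most like the mean of the 10 over the 14 samples were Dpp4 (r = 0.996), Gpm6a (0.995), Pkhd1l1 (0.993), Adgrd1 (0.991), Efemp1 (0.990), Gpc3 (0.989), Pdpn (0.989), Net1 (0.986), Nkain4 (0.984) and Sulf1 (0.983). Gpm6a, Efemp1, Pdpn and Nkain4 are on the list of other mesothelial genes. Dpp4 is a membrane peptidase, Pdpn is podoplanin, a mucin-like surface protein, and Gpc3 is a glypican. Taken singly, Muc16 was most like Sema3d (0.971), Upk1b most like Pkhd1l1 (0.991), and Upk3b and Krt19 most like Igfbp6 (0.991 and 0.989), a binding protein of insulin-like growth factors. Msln was most like the anion exchanger Slc26a3 (0.982), Wt1 most like Pdpn (0.975), Krt8 most like Dpp4 (0.988), Krt18 most like Slit3 (0.985), Lrrn4 most like Gpm6a (0.988) and Aldh1a2 most like the complement gene C2 (0.988). The same 10 genes had an r of 0.937 to 0.987 with the mean of the list when the 4 arrays that stood apart were left out, and the partners of the single genes had 0.884 to 0.992. Of these 10 genes, 7 were still among the 10 most like the mean of the list without the 4 arrays. These values are a description, and the genes were picked for their r, so no test is given.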

How the data were processed

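RNA of 15 cardiomyocyte preparations was measured on microarrays. The deposited table holds the authors' log2 signal of 34760 probe sets per array. The submitters' processing notes name MAS5; its version, background correction and normalization are not given in the sources used here. Array medians were 4.90 to 5.16 and their 95th percentiles 9.11 to 9.16, and values were used as deposited. Arrays have no read depth.

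GEO's platform annotation gave 21640 probe sets with 1 symbol, 1321 with several and 11799 without an entry. The probe set of highest mean was used for each gene (954 genes had several), with no filter on low values. Positions and promoters came from RefSeq (GRCm38.p6), which matched all 10 genes.

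limma 3.58.1 in R 4.3.3 was fitted (lmFit, contrasts.fit, eBayes with a variance trend) to the 14 samples, as 6 groups; 8 degrees of freedom remained (13.3 after moderation). The threshold was an adjusted p of 0.05, by the method of Benjamini and Hochberg across every gene. Correlations used 100000 permutations (Python 3.11.15, scipy 1.17.1). The fit was tested on simulated data.

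The genes and lists were chosen with earlier results of these data known. Named from other lists were genes past the threshold, or else the 2 with the largest proton-sham difference in each of 6 lists (mesothelial, epicardial, retinoic acid, uroplakin, keratin and mucin), the 10 genes most like the mean of the members, the single gene most like each member, and the gene of smallest p per comparison. Calb2 was chosen after its values were seen. Lists without a value in the text had these median differences over all proton days: smooth muscle and pericyte 0.054, adipocyte 0.10, lymphocyte 0.47, and lung and liver epithelium 0.049, and without the 4 arrays that stood apart 0.15, 0.010, 0.39 and 0.14. A few listed genes were not analysed here.

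Replicate numbers in the titles gave no clear pairing of the samples: of 31 same-number pairs of residuals the median correlation was -0.013, and 7 were above 0.1. Pairs of different number were not compared, so these values cannot show that the numbers pair no samples. Alternatives were all 15 arrays as separate samples, quantile normalization, equal array medians, a filter at the median signal, the mean of probe sets, no variance trend, a fit of the compared groups alone, the day 1 sham arrays as the only control, a replicate block, a marker score as covariate, and leaving out each array, with 2 added after the data were seen: the numbered arrays without the block, and 4 arrays left out at once.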

Additional observations from a re-analysis of the deposited data

How the results depend on the processing

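No gene of the list passed the threshold in any of 213 combinations of a comparison with an alternative setting. The settings were 15 that left out 1 array and 12 others, and they share most of their arrays. The lowest adjusted p of a reported member was 0.107 (Muc16, late minus early days, limma with the marker score as covariate). Counts of all genes past the threshold, which were 0, 1, 6, 0 and 12 at days 1, 3, 5, 12 and 26, 3 over all proton days, 1 between late and early days and 0 among days, moved as follows. With all 15 arrays as separate samples they were 8 at day 3, 35 at day 5, 52 at day 26, 8 over all days, 11 between late and early and 20 among days. Quantile normalization gave 29 at day 26, 2 between late and early and 1 among days; equal array medians gave 1 over all days, 3 between late and early and 3 among days; the filter at the median signal gave 5 at day 26. Without the variance trend the counts were 0 at days 5 and 26, over all days and between late and early. With only the groups compared they were 22 at day 5, 92 at day 26, 0 between late and early and 6 among days. With sham of day 1 only they were 2, 1 and 3 at days 3, 5 and 26 and 0 over all days. With the marker score as covariate they were 3, 60, 20, 2 and 127 at the 5 days, 18 over all days, 265 between late and early and 86 among days. Leaving out single arrays gave 0 to 1 on proton day 1, 1 to 2 on proton day 3, 0 to 10 on proton day 5, 0 to 1 on proton day 12, 0 to 39 on proton day 26, 0 to 6 over all days, 0 to 14 between late and early and 0 to 12 among days. The cause of these shifts was not tested.

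With the replicate number as a block, on the 14 numbered arrays, the counts were 2 at day 3, 12 at day 5, 9 between late and early and 16 among days. This fit also leaves out the unnumbered sham array of day 3. The same 14 arrays without the block, an alternative added after seeing the data, gave counts of 3 at day 3, 19 at day 5, 16 between late and early and 33 among days. With and without the block, the list's median was -0.33 and -0.049 at day 3, 0.13 and 0.44 at day 5, and 0.19 and 0.31 over all proton days; Krt8 at day 3 was -0.27 and -0.051, and Muc16 at day 26 was -0.29 in both. The turns of Muc16 at day 3 (-0.18 and 0.24) and Wt1 at day 5 (-0.057 and 0.22) were seen with the block only. No call of a gene of the list changed.

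Leaving out the 4 arrays that stood apart, also added after seeing the data, gave counts of 2, 12 and 119 at days 3, 5 and 26, 0 over all days, 14 between late and early and 117 among days. It turned the median at day 3 to -0.46, Muc16 to -0.53 and Krt8 to -0.46, the median at day 12 to -0.24, Aldh1a2 to -0.24 and Msln to -0.31, Muc16 at day 26 to -0.29, Aldh1a2 over all days to -0.10 and the late minus early median to -0.040, and lowered the median r over pairs to 0.873.

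Signs turned in other settings too. Muc16 at day 26 was -0.075 under quantile normalization, -0.093 with equal medians and -0.29 with sham of day 1 only, where the day 3 median was -0.049 and Krt8 -0.051. The covariate turned the day 1 median to -0.16 and Krt8 to -0.17, Msln at day 12 to -0.12, and at day 26 the median to -0.40, Upk3b to -0.13, Krt18 to -0.023 and Muc16 to -0.97. Over all proton days it turned Msln to -0.075, Krt8 to -0.033, Krt19 to -0.042 and Aldh1a2 to -0.027, and between late and early days the median to -0.17 and Aldh1a2 to -0.046. Leaving out single arrays moved the day 3 median between -0.37 and 0.75, Muc16 there between -0.33 and 1.08 and Krt8 between -0.35 and 0.42, Msln at day 12 between -0.0073 and 1.31, Muc16 at day 26 between -0.29 and 0.42, and between late and early days the median between -0.24 and 0.52, Muc16 between -0.83 and 0.071 and Aldh1a2 between -0.056 and 0.84. The median r over pairs ranged from 0.952 to 0.966 with each sample left out.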
